A study of Mus musculus with 4 samples.

Results

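The start sites of Pcm1, Pafah1b1, Mfhas1, Cdk14, Epc2 and Ivns1abp were described one by one in skeletal muscle of mice with and without AMPKα2. These 6 genes of 9838 with at least 1 site held 68 of the 42207 start sites in the table. They were picked on a shift in the share of their reads between knockout (KO) and wild-type (WT) libraries, so every difference between KO and WT at their sites is given as a description. Calls of the fit over all sites are named for them without p-values, and nothing is drawn from them. The libraries came from adult AMPKα2 KO mice on the C57BL/6 background, in which DNA coding for part of the catalytic domain had been deleted, and from WT controls. The muscle was gastrocnemius according to the study's methods. Each group had 2 libraries from 2 mice. The comparison addressed whether transcripts began elsewhere in the absence of AMPKα2, one of the catalytic subunits of AMPK, the kinase through which a cell responds to a shortage of energy. In whole transcriptome start site sequencing (WTSS-seq), RNA depleted of ribosomal RNA was copied with template switching at the 5′ end, and the read count of a site is the number of reads that began there.

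A gene can be transcribed from several promoters, and a start inside an intron or a late exon gives an RNA without the exons before it. Reads of this kind of library can also begin where an RNA was broken, so a site far from the gene start, in an exon or an intron, need not be a promoter. The 6 genes do not form one pathway. Pcm1 and Pafah1b1 serve the centrosome and the microtubule motor dynein, Mfhas1 and Cdk14 act in signalling, Epc2 belongs to a chromatin complex, and Ivns1abp encodes a kelch repeat protein that binds actin.

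Library depth was 2900279 and 2303294 reads in KO, above the 1300069 and 1568945 reads in WT. Levels are therefore compared as normalized counts (reads divided by the DESeq2 size factor of the library) or as the share of a gene's reads in the same library. Where reads are given instead, they are not corrected for depth. The 13 muscle fibre markers were all detected, and their summed level overlapped between the groups (43973 to 44606 in KO and 39286 to 51434 in WT, in counts scaled to a library total of 1000000). Summed fibroblast markers (7 of 7 detected) were lower in both KO libraries, at 1253 to 1610 against 1869 to 2067. Macrophage markers (4 of 5, Cd68 at 0) were also lower, at 71.64 to 88.6 against 109 to 146, and endothelial markers (5 of 5) were higher, at 158 to 163 against 124 to 146. Adipocyte markers (5 of 7, Cidec and Retn at 0) were lower in both KO libraries, at 354 to 366 in KO against 375 to 535 in WT. Red blood cell markers (2 of 6, with Hba-a2, Hbb-bs, Hbb-bt and Slc4a1 at 0) were higher, at 12.2 to 15.9 against 8.29 to 11.5. The part of these cell types in the values below was not tested, and in bulk muscle fewer cells of a type and less RNA per cell cannot be told apart. Prkaa2, which encodes AMPKα2, had 160 and 180 normalized counts in KO and 148 and 172 in WT, so its summed reads gave no check of the labels.

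A promoter window of Ivns1abp is shown here, since it sets an annotated gene start beside the intronic sites that follow. RefSeq promoter windows of 300 bases (GRCm38.p6) were found for 4 of the 6 genes. Ivns1abp had a site of 52 bp that began 5 bases after the annotated start, and of the 2 windows of this gene, both on the plus strand, chr1:151344248-151344547 held all of it and the other held 45 of its bases. No site overlapped a window of the other genes. The site is in capitals:
Ivns1abp: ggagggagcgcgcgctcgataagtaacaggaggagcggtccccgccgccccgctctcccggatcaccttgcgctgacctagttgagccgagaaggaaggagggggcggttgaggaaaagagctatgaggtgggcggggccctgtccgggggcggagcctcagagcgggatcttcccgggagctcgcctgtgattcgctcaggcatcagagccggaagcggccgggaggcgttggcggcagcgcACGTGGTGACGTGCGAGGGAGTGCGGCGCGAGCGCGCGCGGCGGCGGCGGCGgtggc
This window was 71.3% G or C and held 39 CG pairs, and the other windows of the 4 genes held 27 to 53 CG pairs with 70.3% to 81.3% G or C. Over all 32851 windows the medians were 52.7% and 7 pairs. The letters TATAAA, searched on both strands, were in none of the members' windows and in 13.6% of all windows. The nearest sites of Epc2 and Pafah1b1 lay 232 and 209 bases outside their windows, and that of Cdk14 lay 63966 bases away. The windows of Epc2 and Pafah1b1 did not hold the annotated gene starts, and the Pafah1b1 site lay over the start of its gene.

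Introns held most of the sites. Of the 68 sites, 43 (63.2%) had the class code i for a site inside an intron, against 52.0% of all 40426 sites with a gene. A further 22 (32.4%) had the code c, contained in an annotated transcript, 2 had the code o for another exonic overlap, and 1 had the code e for an overlap of exon and intron. The intronic sites were narrow, with a median width of 8 bp (1 to 31 bp), against 7 bp over all genes. The 25 exonic sites had a median width of 41 bp (10 to 128 bp), against 28 bp. No site of the 6 genes was antisense to an exon, and all lay on the strand of the gene.

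Sites absent from WT were more frequent than sites absent from KO. Both WT libraries had 0 reads at 16 of the 68 sites (23.5%, against 11.6% of all sites with a gene), and both KO libraries had 0 reads at 2 sites (2.94%, against 2.28%). Both KO libraries were also the deeper ones, and the part of depth was not tested. The normalized count was higher in both KO libraries than in both WT libraries at 24 sites (35.3%, against 21.9% of all sites with a gene) and lower at 12 sites (17.6%, against 13.9%). At an adjusted p under 0.1 with DESeq2, 27 of the 68 sites had enough reads to be tested, 8 were higher in KO and 2 were lower, where 2.33% of all tested sites were higher and 0.882% lower. As the genes were chosen for this contrast, nothing is read from that excess, nor from the shares of absent and of non-overlapping sites above. The quasi-likelihood test of edgeR called 7 of the 8 higher sites and 1 of the 2 lower sites. Without KO replicate 1 there were 3 higher calls, without KO replicate 2 there were 4, and with a replicate block there were 4 higher and 0 lower calls. As a description, the highest WT site had at most 1 read in each KO library in Pcm1 and Mfhas1, whereas in the other 4 genes it was read in all 4 libraries.

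**Figure D1:**
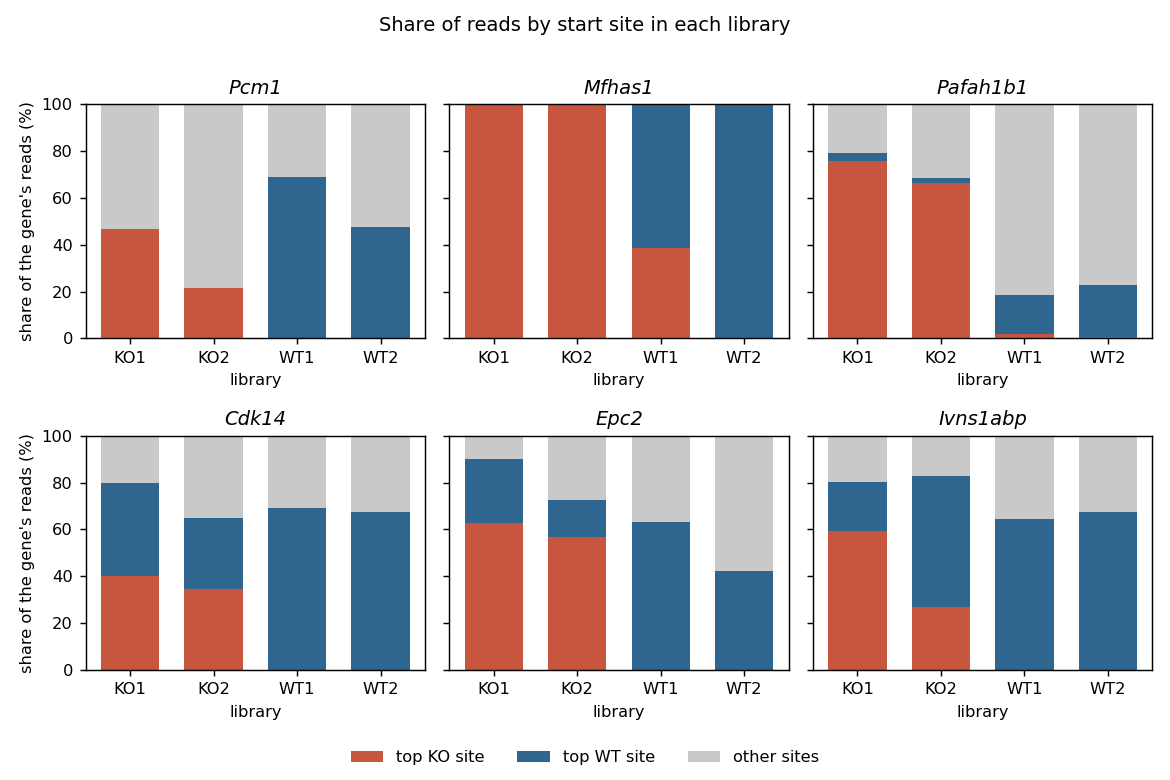
Share of the gene's reads (%, vertical axis) in each of the 4 libraries at the site highest on average in KO (red), the site highest on average in WT (blue) and all other sites (grey), for the 6 genes. In Pcm1 and Mfhas1 the blue share is 0% or 0.192% in KO, whereas in Cdk14, Epc2 and Ivns1abp the blue site keeps 16.02% to 56.2% of the KO reads.

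Pcm1 encodes the scaffold protein of centriolar satellites, granules that gather around the centrosome, and in muscle it also marks the surface of fibre nuclei. The gene spans 41239484 to 41334088 of chromosome 8 on the plus strand and had 17 sites, of which 12 were intronic and 5 contained in a transcript. Its total was 734 and 418 reads in KO against 209 and 172 in WT. The site highest in KO (41282910 to 41282925, intron, 16 bp) lay 43.4 kb from the gene's 5′ end. It had 343 and 89 reads in KO and 0 in both WT libraries, or 46.7% and 21.3% of the gene's KO reads. At 151 ± 105 normalized counts (SD, n = 2) against a floor of 3 reads per library, the KO mean was at least 40.1-fold higher. The WT depth allowed a share of up to 1.44% and 1.74% at this site (3 reads of the gene's total, for counting error only).

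The site highest in WT lay 81.9 kb from the 5′ end (41321401 to 41321407, intron, 7 bp). In WT it had 144 and 82 reads, or 68.9% and 47.7% of the gene's reads, and it had 0 reads in either KO library. That was at least 63.7-fold lower in KO, and the KO depth allowed a share of up to 0.409% and 0.718%. Each of these sites was thus read in both libraries of 1 group and in none of the other. Another intronic site (41266261 to 41266291, 31 bp) was found in every library, with 163 and 115 reads in KO and 11 and 18 in WT. Its share was 22.2% and 27.5% in KO against 5.26% and 10.5% in WT (log2 fold change 2.53, SE 0.81). It was called by DESeq2 and not by edgeR.

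A called site of Pcm1 lay on the scaffold NT_039469.1 (28305 to 28326, intron, 22 bp), with 55 and 44 reads in KO against 0 in WT, at least 9.83-fold higher. A single base site of Pcm1 on the same scaffold, at 33888, had 9 and 1 reads in KO and 0 in WT. The other sites there belonged to Asah1 (25 and 18 reads in KO) and Frg1 (0 and 14), which had no site elsewhere in the table, and all 4 sites of the scaffold had 0 reads in WT. Whether a scaffold site of Pcm1 matches one on chromosome 8 was not tested.

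Most remaining sites of Pcm1 overlapped between the groups or differed less. An intronic site at 41266791 to 41266797 had 7.88 and 54.4 normalized counts in KO and 10.9 and 10.4 in WT, so KO replicate 2 set its KO mean. An intronic site at 41285047 had 17.7 and 13.8 in KO against 16.3 and 4.62 in WT, and one at 41269999 had 5.25 and 5.18 against 1.36 and 5.78. The groups overlapped at each of these sites. Among the exonic sites, the broadest (41275920 to 41276002, 83 bp) had 28.2 and 31.1 normalized counts in KO and 14.9 and 28.9 in WT. Next to each other, 41285967 to 41286016 overlapped, with 6.56 and 5.18 against 2.71 and 11.6, and 41286043 to 41286057 was higher in both KO libraries, with 24.3 and 18.1 against 8.14 and 4.62. Summed over its 5 exonic sites, Pcm1 had 61.0 and 61.3 in KO against 38.0 and 53.1 in WT. The other 6 sites of the gene had at most 10 reads in any library. The site nearest to the annotated 5′ end lay 3.505 kb from it.

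**Figure D2:**
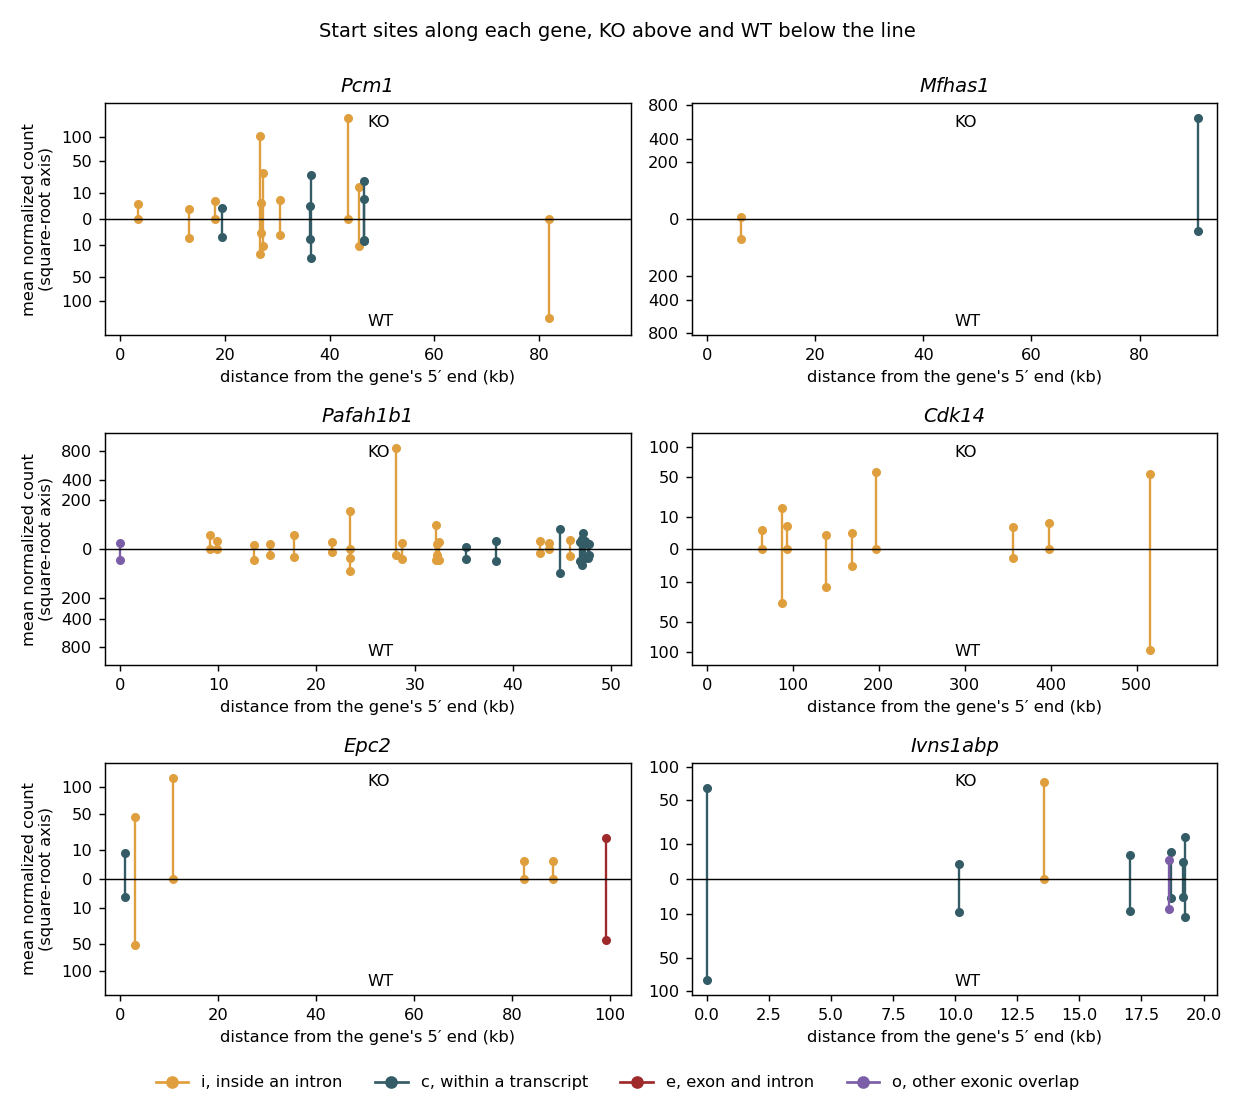
Mean normalized count of each site (square-root axis, KO upward and WT downward, n = 2 libraries each) against its distance from the annotated 5′ end of the gene (kb), coloured by class code. The 2 scaffold sites of Pcm1 are not drawn. The tallest KO site of Pcm1 stands at 43.4 kb and the tallest WT site at 81.9 kb.

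Pafah1b1 encodes LIS1, a regulator of dynein whose loss disturbs the movement of nuclei in the developing brain. It spans 74673949 to 74724384 of chromosome 11 on the minus strand and had 26 sites, the most of the 6 genes, with 16 in introns. Its total was 2104 and 1125 reads in KO against 158 and 221 in WT. A site of 10 bp in an intron, 28.1 kb from the 5′ end (74696248 to 74696257), had 1049 and 644 normalized counts in KO and 4.07 and 1.16 in WT. It took 76.0% and 66.3% of the gene's reads in KO and 1.90% and 0.452% in WT. Unlike the highest KO site of 4 of the other genes, it had reads in both WT libraries, 3 and 1.

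Other intronic sites of Pafah1b1 were also higher in KO. The site at 74701014 to 74701029 had 85.3 and 156 normalized counts in KO and 47.5 and 34.7 in WT, and that at 74692214 to 74692232 had 44.6 and 51.8 against 0 and 19.6. The site at 74706714 to 74706717 had 15.1 and 17.3 against 8.14 and 3.47, and that at 74715215 to 74715228 had 29 and 16 reads in KO and 0 in WT, at least 4.36-fold higher. At none of these 4 sites did the groups overlap, and none of them was called. The site at 74715215 to 74715228 had too few reads to be tested by DESeq2 and was tested by edgeR alone. The site at 74695695 to 74695712 was lower in both KO libraries, with 2.63 and 4.31 against 10.9 and 6.93, and that at 74691904 to 74691911 overlapped, with 2 and 7 reads in KO and 14 and 2 in WT. The intronic site at 74678610 to 74678629 overlapped too, with 19 and 3 reads in KO and 1 and 5 in WT. Summed over its introns without the top KO site, Pafah1b1 had 216 and 265 normalized counts in KO and 118 and 87.8 in WT.

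The exonic sites of Pafah1b1 did not show that direction as a whole. Summed, they had 116 and 62.1 normalized counts in KO and 92.3 and 166 in WT, with overlap. The largest, at 74679556 to 74679578, was also the highest single site on average in WT, with 47.3 and 22.4 normalized counts in KO and 35.3 and 56.6 in WT. Its share was 16.5% and 22.2% in WT and 3.42% and 2.31% in KO, while its level overlapped between the groups. The 128 bp site at 74677381 to 74677508 had 8.53 and 9.49 normalized counts in KO and 17.6 and 24.3 in WT, and the adjoining site at 74677541 to 74677557 had 3.28 and 5.18 against 6.78 and 16.2. In contrast, 74677274 to 74677293 was higher in both KO libraries, with 24.9 and 16.4 against 12.2 and 3.47. The groups overlapped at 74677005 to 74677050 (5.25 and 6.04 normalized counts in KO against 2.71 and 6.93 in WT) and at 74686036 to 74686071 (11.8 and 0 against 6.78 and 17.3). The site of 80 bp over the annotated gene start (74724317 to 74724396, code o) had 7 and 2 reads in KO and 5 and 10 in WT, 0.178% to 4.52% of the gene's reads. The other 11 sites of the gene had at most 17 reads in any library.

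Mfhas1 encodes a leucine-rich repeat protein of the ROCO family of GTPases, with a part in innate immune signalling. It spans 35587789 to 35679449 of chromosome 8 on the plus strand and had 2 sites. The site at 35678537 to 35678580, within a transcript and 99.0% of the way along the gene, had 1225 and 520 reads in KO and 12 and 0 in WT. Its log2 fold change was 6.31 (SE 0.89), with 804 and 449 normalized counts in KO and 16.3 and 0 in WT. The intronic site at 35594174 to 35594198, 6.41 kb from the 5′ end, had 0 and 1 reads in KO and 19 and 20 in WT, at least 10.7-fold lower in KO. DESeq2 called both sites, and edgeR called the first alone. Both KO libraries thus used the late site almost alone and WT replicate 2 the early site alone, whereas WT replicate 1 used both, with 38.7% of its reads at the late site. Since the WT shares rest on 31 and 20 reads, a share of up to 15% at the late site could not be told from 0 in WT replicate 2.

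Cdk14 encodes a cyclin-dependent kinase that binds cyclin Y at the plasma membrane and acts on the Wnt co-receptor LRP6. It is the longest of the 6 genes, spanning 4803384 to 5380251 of chromosome 5 on the minus strand, and its 9 sites were all intronic. The site at 5182841 to 5182865, 197 kb from the 5′ end, had 107 and 51 reads in KO and 0 in WT, at least 15.2-fold higher. It took 40.2% and 34.5% of the gene's KO reads, and the WT depth allowed up to 2.63% and 2.70%. The highest WT site (4864967 to 4864984) had 69.6 and 38.8 normalized counts in KO and 107 and 86.6 in WT. Its share was lower in KO, at 39.8% and 30.4% against 69.3% and 67.57%, and it was not called. The groups did not overlap at either site. Lower values in both KO libraries were also found at 5292190 to 5292206, with 20.3 and 11.2 normalized counts in KO and 25.8 and 30.03 in WT. The site at 5241719 to 5241730 had 1.97 and 1.73 against 16.3 and 10.4. The other 5 sites had at most 14 reads in any library.

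Epc2 encodes a relative of the Drosophila Enhancer of Polycomb and a subunit of the NuA4/TIP60 histone acetyltransferase complex. It spans 49450755 to 49551947 of chromosome 2 on the plus strand and had 6 sites. An intronic site 10.8 kb from the 5′ end (49461553 to 49461568) had 210 and 117 reads in KO and 0 in WT, at least 31.7-fold higher. With 62.7% and 56.8% of the gene's reads it was the main site in KO, while the WT depth allowed up to 4.41% and 3.33%. The highest WT site lay closer to the gene start (49453860 to 49453862, intron, 3.11 kb). It had 60.4 and 28.5 normalized counts in KO and 58.4 and 43.9 in WT, so its level overlapped between the groups. Its share did not, at 27.5% and 16.02% in KO against 63.2% and 42.2% in WT. The site over an exon and an intron near the 3′ end (49549909 to 49550020) had 5.25 and 34.5 against 29.9 and 56.6 and overlapped as well. A site within a transcript, 1.04 kb from the 5′ end (49451767 to 49451793), had 13 and 8 reads in KO and 3 in each WT library. The other 2 sites had at most 7 reads in any library.

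Ivns1abp encodes a kelch repeat protein first found as a partner of the influenza virus protein NS1. It spans 151344486 to 151364445 of chromosome 1 on the plus strand and had 8 sites, 1 of them intronic. That site (151358069 to 151358081, 13.6 kb from the 5′ end) had 159 and 52 reads in KO and 0 in WT, at least 19.8-fold higher. It took 59.3% and 26.8% of the KO reads, and the WT depth allowed up to 4.62% and 2.22%. The site at the gene start, whose bases are printed above, had 36.8 and 94.1 normalized counts in KO and 57.0 and 105 in WT. Its share was 20.9% in KO replicate 1 and 56.2% in KO replicate 2, and 64.6% and 67.4% in WT. KO replicate 2 thus lay closer to WT than to KO replicate 1 in this gene. Near the 3′ end, 151363718 to 151363789 had 13.8 and 14.7 normalized counts in KO and 14.9 and 8.09 in WT, with overlap. Sites of fewer reads in between gave 4, 1, 0 and 15 reads (151354629 to 151354669) and 10, 3, 0 and 14 reads (151361487 to 151361535) in KO replicates 1 and 2 and WT replicates 1 and 2. In the same order, 151363158 to 151363196 had 10, 6, 1 and 4 reads. The other 2 sites had at most 7 reads in any library.

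Across the genes, the site highest in KO differed more between the group means than the sum of the other sites did, by fold. Choosing that site by its KO level, in genes picked on a shift in share, favours a larger fold there, so nothing is read from this. In Mfhas1 the other site differed strongly too, in the opposite direction. The site highest in KO was intronic in 5 of the 6 genes and 10 to 44 bp wide. At each of these 6 sites the normalized count was higher in KO replicate 1 than in KO replicate 2, by 1.36-fold in Epc2 to 2.93-fold in Pcm1. With that site left out, the gene's remaining normalized counts overlapped between the groups in Pcm1 (257 and 284 in KO, 284 and 199 in WT) and Ivns1abp (71.5 and 123, 88.2 and 156). They were lower in KO in Cdk14 (104 and 83.7, 155 and 128), in Epc2 (82.0 and 76.8, 92.3 and 104) and in Mfhas1 (0 and 0.863, 25.8 and 23.1). In Pafah1b1 they were higher in KO, at 331 and 327 against 210 and 254. Leaving out a site chosen as the highest in KO lowers the KO remainder by itself, so these sums are a description.

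**Figure D3:**
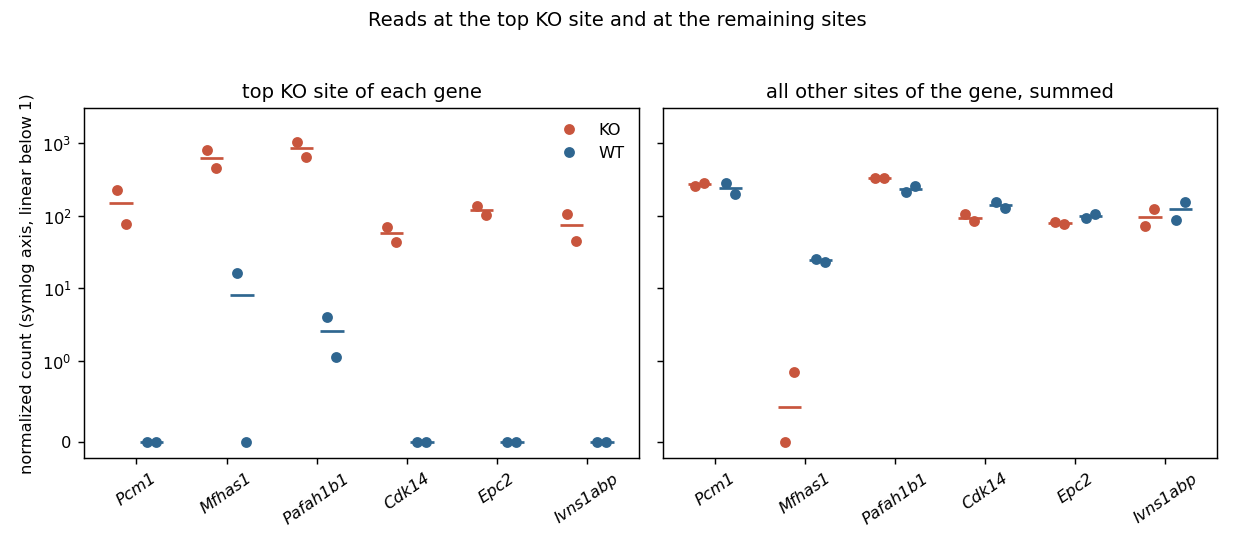
Normalized count in each library (points) and group mean (bars, n = 2) at the site highest in KO (left) and summed over all other sites of the gene (right), on an axis that is logarithmic above 1 and linear below. At left, 4 of the 6 genes sit at 0 in both WT libraries, and at right the KO mean is 0.665 to 1.42 times the WT mean except in Mfhas1.

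Summed over all sites, DESeq2 called 2 of the 6 genes, where 2.67% of all tested genes were called in either direction. Pafah1b1 had 1381 and 971 normalized counts in KO and 214 and 255 in WT (log2 fold change 2.19, SE 0.43), and Mfhas1 had 804 and 450 against 42.1 and 23.1 (4.14, SE 0.53). In Epc2 the sums did not overlap, at 220 and 178 against 92.3 and 104 (0.89, SE 0.51), and the same held for Pcm1, at 482 and 361 against 284 and 199 (0.68, SE 0.46). Ivns1abp had 176 and 167 against 88.2 and 156 (0.36, SE 0.54). Cdk14 had 175 and 128 against 155 and 128 (-0.03, SE 0.51), so its summed reads overlapped while the shares of its highest KO site and its highest WT site did not.

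The shift of use in a gene was measured as a share distance, the sum of absolute differences in share over its sites divided by 2, which is 0 for the same use and 1 for no site in common. Between the mean KO and mean WT shares it was 0.805 in Mfhas1, 0.726 in Pafah1b1, 0.688 in Pcm1, 0.635 in Epc2, 0.512 in Cdk14 and 0.442 in Ivns1abp. Over the 2033 genes with at least 2 sites and 30 reads in every library, its median was 0.198 and its 95th percentile 0.443. Replicates differed as well: over the same genes the median distance was 0.229 between the KO libraries and 0.246 between the WT libraries, which compare single libraries and not means. In 4 of the 6 genes the smallest of the 4 distances between a KO and a WT library, 0.716 in Pafah1b1, 0.655 in Pcm1, 0.607 in Epc2 and 0.465 in Cdk14, exceeded both replicate distances of the gene (at most 0.393). Mfhas1 met the same condition at 0.611 against 0.387 but had only 20 reads in WT replicate 2. In Ivns1abp it was not met, since the distance was 0.304 from KO replicate 2 to WT replicate 1 and 0.380 between the KO replicates. As the 6 genes were picked on these shares, this comparison is a description and nothing is read from it.

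The order of these distances rested in part on the site highest in KO. Without it the distance between the groups was 0.641 in Pcm1, 0.448 in Pafah1b1, 0.228 in Cdk14, 0.177 in Epc2 and 0.0950 in Ivns1abp. In Cdk14, Epc2 and Ivns1abp that was below the distance between the KO replicates over the same sites, at 0.333, 0.402 and 0.271. The distance between the WT replicates was also larger in Epc2 (0.221) and Ivns1abp (0.257), but smaller in Cdk14 (0.0676). In Pcm1 and Pafah1b1 the distance between the groups was above that of the KO replicates (0.186 and 0.314) and of the WT replicates (0.283 and 0.389). Replicate distances compare single libraries and those between the groups compare means. The genes were picked on a shift in these shares, so these values too are a description. Mfhas1 had 1 site left and gave no value.

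**Figure D4:**
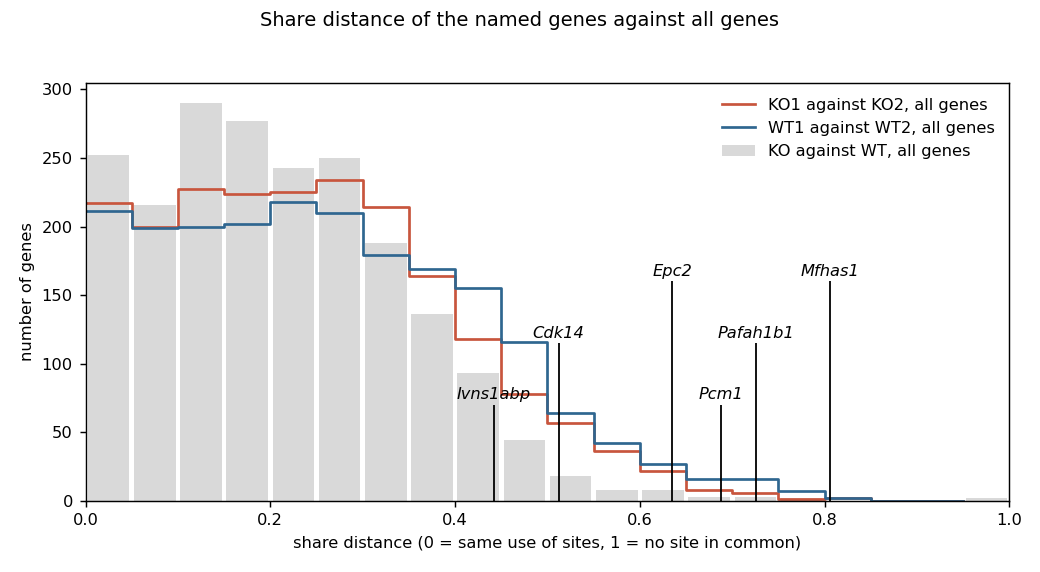
Number of genes (vertical axis) by share distance (horizontal axis, 0 to 1) among 2033 genes, between mean KO and mean WT shares (grey) and between replicates (lines), with the 6 genes marked by their KO to WT distance. Ivns1abp stands just under the 95th percentile of the grey bars (0.443) and the other 5 to the right of it, and Mfhas1 is marked although it was too shallow to be among the 2033.

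By the smallest KO to WT distance over the 4 library pairs, Pafah1b1 was number 6, Pcm1 number 8, Epc2 number 11, Cdk14 number 61 and Ivns1abp number 374 of the 2033 genes. These ranks only describe the genes, since they were picked on the same shares. The genes most like them by this measure were Kif1c (1.00), Dynll2 (0.947), Wasf2 (0.743), Zfp532 (0.741) and Msi2 (0.724). In Kif1c, Dynll2 and Msi2 the site with the most KO reads lay on an alternate scaffold. Scaffold and chromosome sites were counted separately, and some were of like width (51 and 49 bp in Dynll2, 16 and 16 bp in Msi2). For these 3 genes the distance therefore cannot tell another start from another copy of the same start. Whether their scaffold sites match those on the chromosome was not tested. Kif1c had 114 and 113 reads in KO and 0 in WT at a site on NT_187026.1, and 0 in KO and 69 and 85 in WT at a site on chromosome 11. In Msi2 a scaffold site had 157 and 97 reads in KO and 0 in WT, while its site at 88340824 to 88340839 of chromosome 11 was read in all libraries, with 52, 39, 32 and 48 reads. Wasf2, like Pcm1, had such sites on its own chromosome, with 5 and 3 against 210 and 68 reads at 133179732 to 133179736 and 14 and 8 against 0 at 133187626 to 133187651 of chromosome 4. Another Wasf2 site, at 133195944 to 133195948, had more KO reads than the latter and was read in all libraries, with 18 and 12 in KO and 10 and 1 in WT. Among the 6 genes, Pcm1 was the only one with a site on a scaffold. Its scaffold sites were counted separately too, so the same limit holds for their part in its distance. Over primary chromosomes alone the median distance of the 6 genes was 0.654, against 0.662 with all sites.

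Sites around the 6 genes were examined within 1 Mb on each side, a window chosen after seeing the data. Of 280 such sites in 60 genes, 68 were tested and 2 were higher in KO. The share of 2.94% was near the 3.21% of all tested sites called in either direction. Near Pcm1, an intronic site of Vps37a (40542967 to 40542968) had 60 and 53 reads in KO against 0 in WT, with an adjusted p of 0.00552 by DESeq2. Near Mfhas1, an intergenic site at 34826919 to 34826934 had 1565 and 80 reads in KO and 65 and 51 in WT (DESeq2 adjusted p 0.0641), so KO replicate 1 decided it. No called site lay within this window of the other 4 genes, and no site of another gene lay inside the span of any of the 6.

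Genes that work with the 6 proteins, or are related to them, were listed by function and compared in the same DESeq2 fit. Of 106 genes in 6 lists, 85 had a site, and of their 128 tested sites 5 were higher and 3 lower in KO, a share of 6.25% against the background of 3.21%. With edgeR, 4 of 133 tested sites were called, and DESeq2 called 4 without KO replicate 1 and 2 without KO replicate 2. Of the 8 DESeq2 calls, 4 lay in Dynll2, a light chain of dynein, on a scaffold and on chromosome 11: 317 and 479 reads in KO and 2 and 5 in WT on NT_187003.1, and 7 and 12 against 162 and 131 on the chromosome (DESeq2 adjusted p 6.98e-09 and 3.90e-06). A smaller scaffold site of Dynll2 had 85 and 134 reads in KO and 0 in WT (adjusted p 0.000194), and a smaller chromosome 11 site had 0 in KO and 53 and 2 in WT (adjusted p 0.0111). Summed over the scaffold and the chromosome Dynll2 was not called (adjusted p 0.785). Its calls were thus 2 sites higher on the scaffold and 2 lower on the chromosome. Since this 1 gene held 4 of the 8 calls, the share of 6.25% is not read as an excess over the background. The other 15 dynein, dynactin and LIS1 genes with a site had no called site, so the partners of Pafah1b1 showed no call outside Dynll2.

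The partners of Cdk14 gave the only called sums, 2 of 53 tested partner genes, where 2.67% of all tested genes were called. Without KO replicate 1, and likewise without KO replicate 2, 0 partner genes were called, and with WT replicate 1 or WT replicate 2 left out 1 was. Ccnyl1, a relative of the cyclin Y that binds Cdk14, had 115 and 86.3 normalized counts in KO and 19.0 and 9.24 in WT (log2 fold change 2.72, SE 0.74), with an adjusted p of 0.0172 by DESeq2 and 0.0970 by edgeR. It rested on an intronic site with 132 and 91 reads in KO and 3 and 0 in WT (adjusted p 0.00180). Ccnd3, which encodes cyclin D3, fell, with 0.656 and 3.45 normalized counts in KO and 63.8 and 16.2 in WT (log2 fold change -4.42, SE 1.24). Its adjusted p was 0.0235 by DESeq2 and 0.111 by edgeR. Its called intronic site had 1 and 0 reads in KO and 47 and 7 in WT (adjusted p 0.0367), so WT replicate 1 held most of its reads.

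Among the centriolar satellite and pericentriolar genes, 1 of 22 tested sites was called, an intronic site of Cdk5rap2 with 108 and 25 reads in KO and 2 and 0 in WT (DESeq2 adjusted p 0.0408, edgeR 0.142). Among the kelch repeat genes, 1 of 37 was called, a site within a transcript of Klhl9 with 393 and 714 reads in KO and 44 and 50 in WT (adjusted p 0.00244, edgeR 0.122). Neither gene was called in sum (adjusted p 0.442 and 0.992). The NuA4/TIP60 subunits had 17 tested sites and the ROCO and leucine-rich repeat genes 13, and DESeq2 called 0 of them, with 1 and 0 at an unadjusted p under 0.05, and edgeR called none of them either. The median log2 fold change of all partner sites tested was 0.12, and that of all sites tested was 0.10.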

How the data were processed

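Total RNA of gastrocnemius muscle from AMPKα2 KO and WT mice (2 libraries each, groups and replicate numbers taken from the labels) was used for WTSS-seq. The authors deposited 1 table of raw read counts with a line for each clustered start site. The submitters' processing notes name the genome build GRCm38.p5, and positions are counted from 1 as in the table. Mapping with TMAP, clustering of read starts and assignment to genes with Cuffcompare were stated for 3′-end libraries of the same study, and not stated for these 5′ ends. No site had a total under 10 reads. A line of column totals was left out. No molecular identifiers were described, so copies made by PCR were counted as reads, and zero limits cover counting error only. Reads of a scaffold and of its chromosome were counted as separate sites.

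The 6 genes and all gene lists were chosen with earlier results of these data known. Sites, and counts summed per symbol, were compared by DESeq2's Wald test (1.42.0, in R 4.3.3) at a Benjamini-Hochberg adjusted p under 0.1 over all features, after the study's methods. After independent filtering (mean normalized count over 8.76 for sites), 11112 sites and 4688 genes were tested. All sites of the 6 genes were described, those with at least 20 reads in all with their values. The 5 other genes with the largest smallest share distance and each partner gene with a call were named. Alternatives were edgeR (version 4.0.16), TMM scaling, no independent filtering, a threshold of 0.05, a replicate block, and leaving out each library. Scripts were tested on simulated data. Gene spans and promoter windows came from RefSeq (GRCm38.p6), whose primary chromosomes share coordinates with the earlier patch. With 2 libraries a group, an exact permutation test cannot go below p 0.333, so none was made. Nothing says whether p-values cover more than the spread between these 4 mice. One list of cell type markers is not reported here.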

Additional observations from a re-analysis of the deposited data

How the results depend on the processing

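Against 8 higher and 2 lower member sites with DESeq2, edgeR called 7 and 1, and both independent filtering off and the threshold of 0.05 gave 7 and 1. Leaving out each library in turn gave 3 to 7 higher sites and 1 lower site, with 3 without KO replicate 1 and 4 without KO replicate 2. The same-numbered libraries share only a number (correlation of deviations 0.0719 over 10728 sites, 2 pairs). With a replicate block, 4 higher and 0 lower member sites were called, 4 of the 10 being called in both fits, and 1 partner gene. The 2 member genes were called under every alternative run. Partner site calls went from 8 to 4 with edgeR and ranged from 2 to 8 with a library left out (4 without KO replicate 1, 2 without KO replicate 2). Partner gene calls went from 2 to 1 with edgeR and from 0 to 1 with a library left out. The median share distance of 0.662 became 0.757 over intronic sites alone, for which 4 genes remained, and ranged from 0.623 to 0.705 without a library. It was 0.228 over 5 genes without the site highest in KO, an alternative added after seeing the data. Without a library, the summed log2 fold change of Cdk14 ranged from -0.20 to 0.13 (0.13 without KO replicate 2, 0.08 without WT replicate 1) and that of Ivns1abp from -0.012 (without WT replicate 1) to 0.84. In the other 39 of 42 refits of the summed counts of the 6 genes (with edgeR, TMM scaling, the block or a library left out) the direction was as given. The cause of these changes was not tested. Depth limits WT shares most, since 3 reads are 1.36% to 15% of a member's reads in a WT library.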
